A study of Mus musculus with 7 samples.

Results

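Homologous recombination, the Fanconi anemia pathway and mismatch repair keep a replicating genome intact. In recombination a broken end is sensed by the MRE11, RAD50 and NBS1 proteins and the ATM kinase, cut back, and prepared by BRCA1, BRCA2 and their partners to copy the sister DNA; the Fanconi proteins unhook crosslinks between strands, and MutS and MutL proteins find and remove mismatched bases. Many of these genes are transcribed most in cells that replicate DNA, and E2F factors drive a part of them. The genes described here are those whose annotated symbol stands on a list of 33 such symbols, each read from a single probe set; where a symbol had several, the brightest on average was to be taken. Values for 32 of the 33 were found among 19505 named genes; Xrcc2 was not analysed here. All 32 had a single probe set.

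The RNA came from splenic cDC1, the type 1 conventional dendritic cells that cross-present antigen to CD8 T cells, sorted from C57BL/6 mice bearing B16-OVA tumors, a melanoma line that expresses ovalbumin. The 3 arrays labelled WT came from wild-type mice, and the 4 labelled KO from CD11c-Cre; OPA1 flox mice, in which a recombinase under the CD11c promoter acts on a floxed Opa1, the gene of the GTPase that fuses inner mitochondrial membranes. The CD11c promoter is active in other CD11c-expressing cells as well as cDC1, and mouse age and sex, and whether each array stands for a separate mouse, are not given in these labels. The series title names mitochondrial metabolism and signaling in dendritic cell function, and the comparison asks which genes differ with Opa1 loss. P-values reflect the spread among 7 arrays, some of which may be technical, and so few arrays limit precision. Values are log2 microarray signals; they are listed in the order WT 1, WT 2, WT 3 and then KO 1, KO 2, KO 3, KO 4, and every difference subtracts WT from KO on that log2 scale. Levels of different probe sets are not compared.

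The arrays labelled WT 1 and WT 2 stand apart and carry markers that go against a pure cDC1 sort. WT 3 carries melanocyte markers as well, to a lesser degree. Across genes, which are not independent replicates, their mutual correlation was 0.982, against 0.924 to 0.954 for their pairs with the remaining 5 arrays and 0.988 to 0.993 among those 5. Of 12 melanocyte markers, 12 were lower in KO and 11 did so with no overlap between groups, 91.7% beside 5.92% of all genes; their summed linear signal was 60931, 73637 and 10288 in WT and 2084 to 3890 in KO. Of 12 cDC1 markers, 12 were higher in KO, with a summed signal of 29557, 10399 and 50645 in WT and 50577 to 53062 in KO. Against the KO mean, the mean of the 12 stood at -1.03 on WT 1 and at -2.61 on WT 2. Cd8a read 7.89 and 6.96 on WT 1 and WT 2, 12.11 on WT 3 and 11.95 to 12.12 in KO. Other cDC1 markers stayed nearer to KO on WT 1: Xcr1 read 12.12 there and 7.97 on WT 2, with 12.70 to 12.79 in KO. Itgae read 11.45 on WT 1, within the KO range of 11.03 to 11.66, and 8.37 on WT 2. Markers of monocytes and macrophages and of cDC2 stood highest on WT 2, at 1.63 and 1.48 above the KO mean. Of 32 measured proliferation genes 31 were lower in KO, with a summed signal of 56135, 54351 and 35353 in WT and 29872 to 35853 in KO. No melanocyte, cDC1 or proliferation gene lay at or under the median of the negative control probe sets on all arrays. Opa1 read 8.14, 8.80 and 9.15 in WT and 7.70, 7.10, 6.85 and 8.24 in KO, so KO 4 lay above WT 1 and the groups overlap; whether its probes lie in the floxed part is not given in these labels. In bulk RNA fewer cells of a type and less RNA per cell cannot be told apart, and the part of these markers in the results below was not tested. The plot of differences therefore gives every gene also against WT 3 alone, that is, without WT 1 and WT 2. That reference is not free of melanocyte signal: the mean of those markers on WT 3 lay 1.41 above the KO mean.

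**Figure D1:**
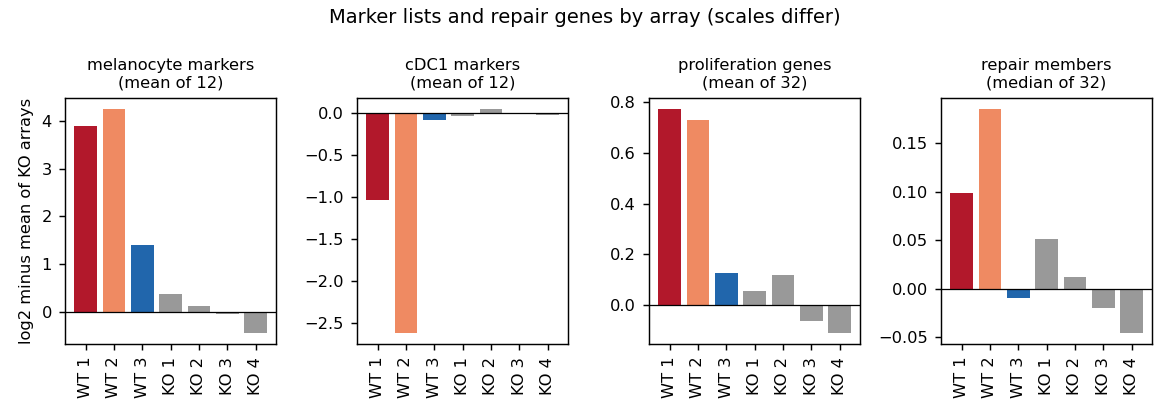
Bars give, for each array, the mean of 12 melanocyte markers, 12 cDC1 markers and 32 proliferation genes, and the median of the 32 repair genes, each as log2 minus the mean of the 4 KO arrays; the vertical scales differ. WT 1, WT 2 and WT 3 stand at 3.90, 4.25 and 1.41 for melanocyte markers and at 0.77, 0.73 and 0.13 for proliferation genes. The median of the repair genes lies between -0.05 and 0.19. That median takes in genes that go both ways, and single genes lie far outside it.

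The promoters of the genes that separated WT from KO arrays by the widest gaps in each direction are shown first, as RefSeq gives them (build GRCm38.p6, 250 bases before to 50 after a transcription start, 5′ to 3′ on the gene's strand). Rad51c and Brca1 read lower in KO, Mlh3 and Msh3 higher. Capitals mark the letters of an E2F site, searched as TTTCCCGC, TTTCGCGC, TTTGCCGC or TTTGGCGC on both strands. Rad51c has a second listed start and Mlh3 a close second one; 1 window of each is shown.
Rad51c, chr11:87404457-87404756, minus strand: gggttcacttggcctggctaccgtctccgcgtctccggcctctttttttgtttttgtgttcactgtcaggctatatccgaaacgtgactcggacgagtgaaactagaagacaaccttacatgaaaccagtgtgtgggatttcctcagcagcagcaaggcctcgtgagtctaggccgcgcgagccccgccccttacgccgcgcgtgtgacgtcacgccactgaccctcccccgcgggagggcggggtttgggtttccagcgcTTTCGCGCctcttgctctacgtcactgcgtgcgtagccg
Brca1, chr11:101551906-101552205, minus strand: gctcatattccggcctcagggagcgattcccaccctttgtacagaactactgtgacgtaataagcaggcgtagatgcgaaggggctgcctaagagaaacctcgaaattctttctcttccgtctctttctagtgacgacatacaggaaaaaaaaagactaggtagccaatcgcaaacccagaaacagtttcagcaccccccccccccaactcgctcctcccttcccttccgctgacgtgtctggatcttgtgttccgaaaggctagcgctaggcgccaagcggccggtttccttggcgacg
Mlh3, chr12:85270550-85270849, minus strand: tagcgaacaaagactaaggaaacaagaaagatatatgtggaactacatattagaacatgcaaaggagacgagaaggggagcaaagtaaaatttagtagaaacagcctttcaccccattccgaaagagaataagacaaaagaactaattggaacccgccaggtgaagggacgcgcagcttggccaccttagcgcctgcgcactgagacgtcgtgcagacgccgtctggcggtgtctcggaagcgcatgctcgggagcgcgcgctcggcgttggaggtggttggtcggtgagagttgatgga
Msh3, chr13:92354954-92355253, minus strand: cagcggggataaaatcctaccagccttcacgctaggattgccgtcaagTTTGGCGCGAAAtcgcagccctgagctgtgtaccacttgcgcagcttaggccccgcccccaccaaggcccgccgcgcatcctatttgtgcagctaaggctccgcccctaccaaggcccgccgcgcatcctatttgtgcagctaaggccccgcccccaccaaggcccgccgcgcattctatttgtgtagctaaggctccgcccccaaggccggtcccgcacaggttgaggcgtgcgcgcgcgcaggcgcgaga
The Rad51c window holds 1 match, which begins 11 bases after the start, and the Msh3 window holds 2 matches that overlap each other, one on each strand, which begin 202 and 198 bases before it. The Brca1 and Mlh3 windows hold none of these letters.

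Of the 32 genes, 27 had a promoter entry; Rad51d, Rad50, Nbn, Fancd2 and Exo1 had none. Of those 27, 7 held at least 1 match in a window: Rad51c, Brca2, Bard1, Chek2, Fancg, Msh3 and Msh6. That is 25.9%, beside 3.38% of 15691 genes on the array with promoters of the same length, and the median GC content was 58.3% and 57.0%. By window, 8 of 31 held a match, 25.8%, beside 2.94% of 19143 promoters of genes on the array and 2.26% of all 32851 promoters. The genes with a match did not share a direction: Rad51c, Brca2 and Bard1 had negative differences, and Chek2, Fancg, Msh3 and Msh6 positive ones. A match of letters is a description and not a bound site.

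Between KO and WT, 0 recombination or mismatch repair genes passed at an adjusted p of 0.05 over all 19505 genes (limma with Benjamini-Hochberg adjustment, smallest adjusted p = 0.223), where 0% of all genes passed. Without adjustment, 11 of the 32 had a p under 0.05, 34.4% beside 19.6% of all genes. Of these, 5 were lower in KO (15.6% beside 10.6%) and 6 higher (18.8% beside 8.98%). The median difference of the 32 was -0.10 beside 0.06 for all genes, and 20 of them, 62.5%, were negative, beside 40.1% of all genes. This direction turned under a filter on dim probe sets, which kept 18 of the 32. Of these, 8 were negative, and 1 lay lower and 4 higher in KO without overlap. Their median was 0.0607 beside 0.0298 for all genes kept. The matching shares among all genes kept were not counted. Without the filter, the median absolute difference of the 32 was 0.28, beside 0.18 for all genes. Every KO array lay below every WT array in 5 genes, Rad51c, Brca1, Blm, Fancm and Exo1, 15.6% beside 5.92% of all genes. Every KO array lay above every WT array in 4, Rad51d, Fancg, Msh3 and Mlh3, 12.5% beside 7.85%. The SD among WT arrays exceeded that among KO arrays in 22 genes, 68.8% beside 66.7% of all genes. The list thus holds genes that read lower and genes that read higher in KO within the same complexes and pathways.

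**Figure D2:**
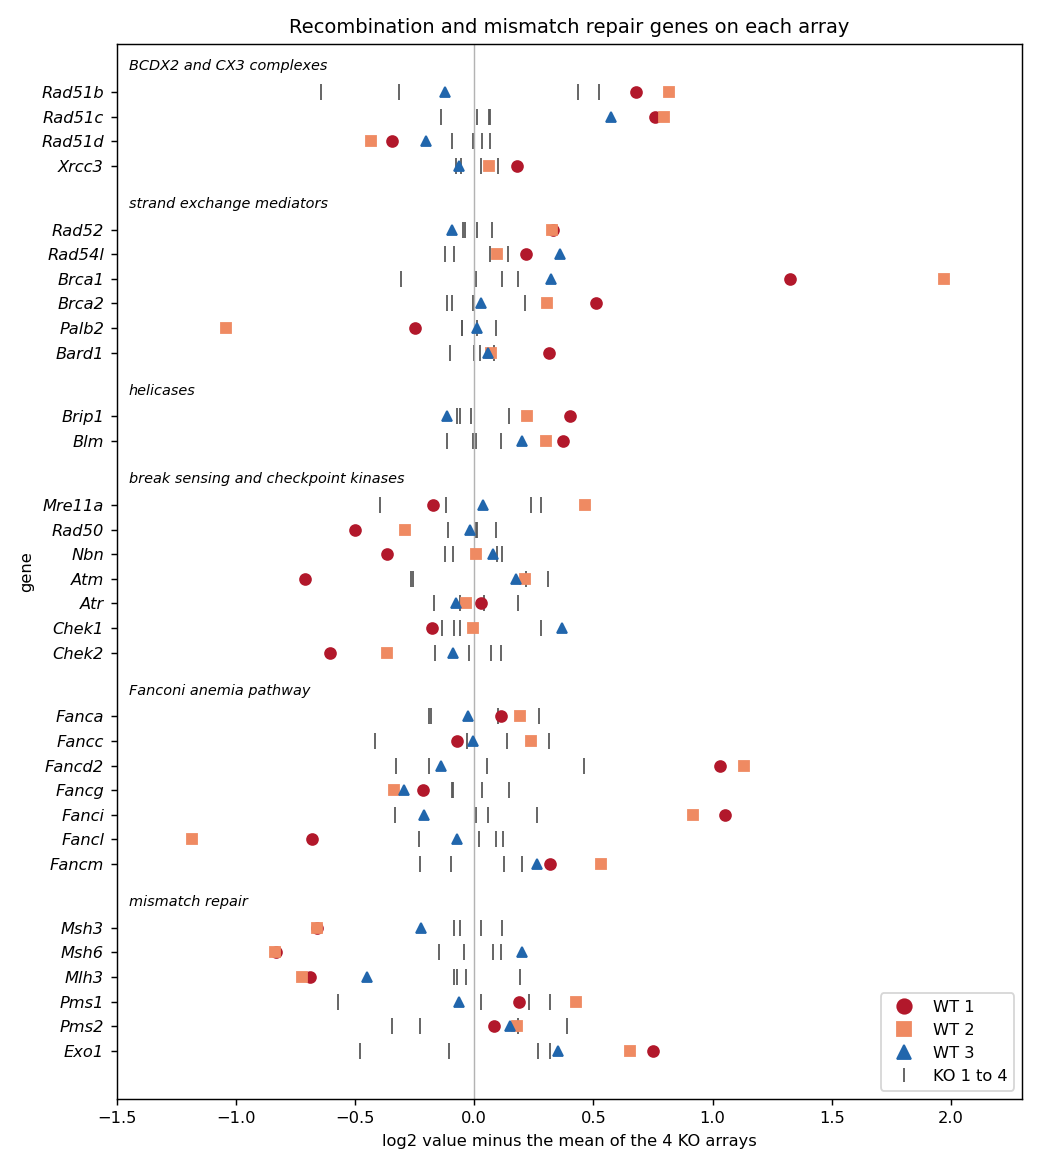
Each row is a gene and each mark 1 array, as log2 value minus the mean of the 4 KO arrays, with genes grouped by role. Brca1, Fancd2 and Fanci lie far to the right on WT 1 and WT 2, and Msh3, Msh6 and Mlh3 to the left. WT 3 lies within the KO range in 18 of 32 genes, 56.2% beside 57.7% of all genes.

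WT 3 lay on either side of the KO range or within it, and the share within was near that of all genes. WT 1 and WT 2 both lay outside the KO range on the same side in 20 of the 32, 62.5% beside 46.0% of all genes, above it in 11 (34.4% beside 20.6%) and below it in 9 (28.1% beside 25.4%). In 9 of those 20 WT 3 lay on the same side, and in 8 it lay within the KO range. Among all genes, 8970 had WT 1 and WT 2 outside in this way. WT 3 lay on the same side in 2687 of them and within the KO range in 4786. WT 3 lay within the KO range in 18 of the 32, 56.2% beside 57.7% of all genes, above it in 8 (25.0% beside 18.1%) and below it in 6 (18.8% beside 24.2%). When WT 1 and WT 2 were left out, 0 genes of the list passed (limma; 3 at an unadjusted p under 0.05, 9.38% beside 5.92% of all genes), 15 of 32 differences were negative, and the median was 0.01. Those 3 were Rad51c, Mlh3 and Rad54l; this fit rests on 1 WT array, assumed to vary like the KO arrays. When WT 3 was left out instead, 13 genes of the list passed, 40.6% beside 25.3% of all genes. The 5 lower in KO were Rad51c, Brca1, Fancd2, Fanci and Exo1 (15.6% beside 13.8%), and the 8 higher were Rad51d, Palb2, Rad50, Chek2, Fancl, Msh3, Msh6 and Mlh3 (25.0% beside 11.4%). Array weights, which count WT 3 least, gave 14 that passed, 43.8% beside 22.9%, of which 7 were lower (21.9% beside 12.6%) and 7 higher (21.9% beside 10.3%).

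**Figure D3:**
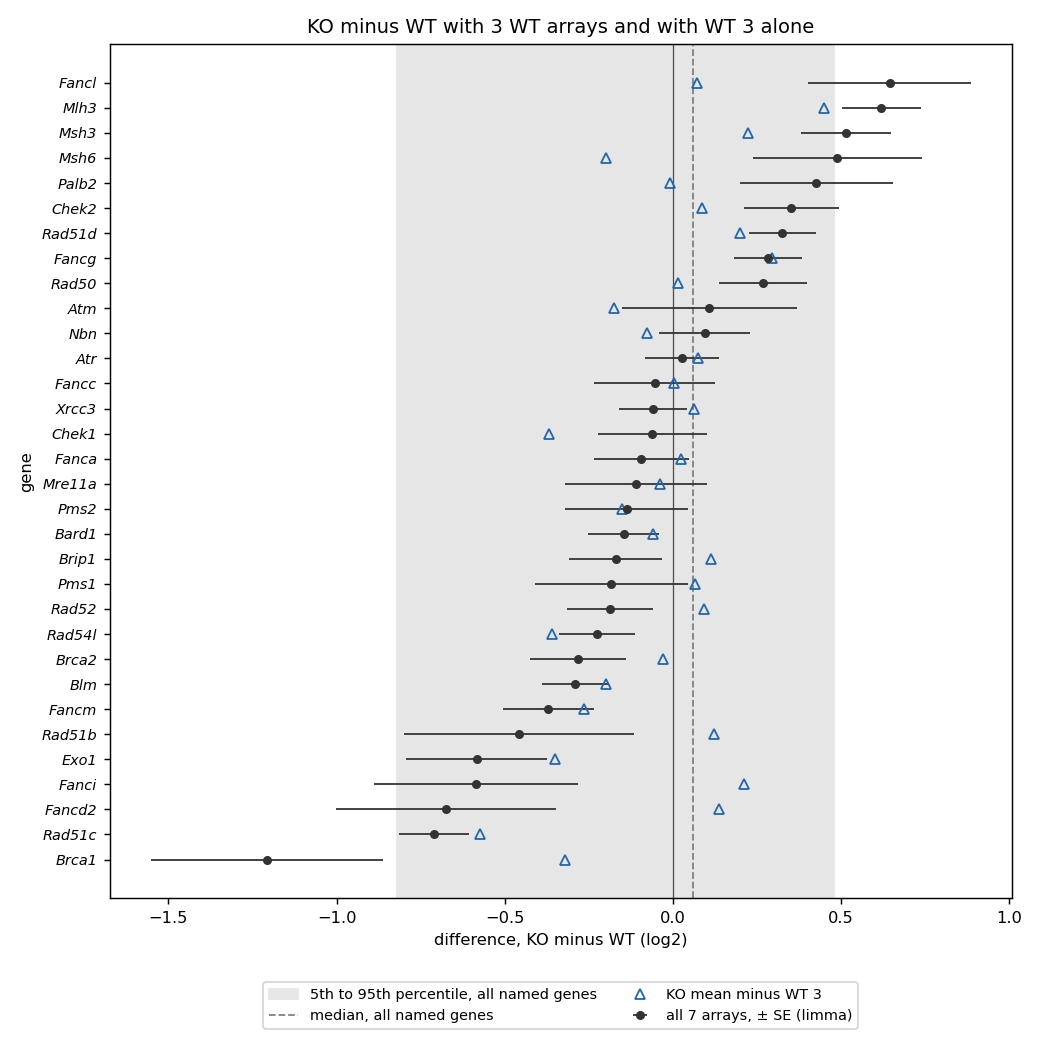
Points give KO minus WT in log2 over all 7 arrays with the standard error from limma, and open triangles the KO mean minus WT 3 alone; the grey band spans the 5th to 95th percentile of all named genes. Rad51c, Mlh3 and Fancg keep most of their difference against WT 3 alone, while Fancd2, Fanci and Msh6 lie on the other side of 0.

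In the BCDX2 and CX3 complexes, which act in recombination, Rad51c and Rad51d differed in opposite directions. RAD51C and RAD51D sit together in the BCDX2 complex, and RAD51C also pairs with XRCC3 in the CX3 complex. Rad51c read 7.94, 7.98 and 7.76 in WT and 7.04, 7.25, 7.25 and 7.19 in KO. The lowest WT array stood 0.51 above the highest KO array, the widest gap of the 9 genes without overlap. The difference was -0.71 with a standard error of 0.10, 1.64-fold on the linear scale (limma, adjusted p = 0.223, unadjusted 0.000146), and -0.57 against WT 3 alone. Rad51d read 9.54, 9.45 and 9.68 in WT and 9.87, 9.91, 9.95 and 9.79 in KO. Its groups did not overlap, WT 3 was the WT array nearest to KO, and the difference was 0.33 with a standard error of 0.10 (limma, adjusted p = 0.223). Rad51b, another subunit of that complex, read 7.41, 7.55 and 6.61 in WT and 7.26, 6.42, 6.09 and 7.17 in KO, and it stood above the negative control median on 4 of 7 arrays. Here the KO arrays themselves spread over more than a log2 unit and WT 3 lay among them. Xrcc3 differed by -0.06 with a standard error of 0.10.

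Rad51c shares its start region with Tex14, a gene of germ cell intercellular bridges; by RefSeq start sites 111 bases separate the divergent starts. Tex14 read 5.54, 5.32 and 5.74 in WT and 6.17, 6.07, 6.21 and 6.08 in KO, and exceeded the negative control median on 0 of 7 arrays. That median was 6.19 to 6.71 on the WT and 6.49 to 6.88 on the KO arrays, so Tex14 is given no difference.

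Of the 32 genes, 10 had such a divergent neighbour on the array within 1000 bases. Brca1 and its neighbour Nbr1, an autophagy receptor, were both lower in KO, by -1.21 and -0.50, and Nbr1 read 9.10, 8.89 and 9.07 in WT and 7.89, 8.69, 8.58 and 8.91 in KO. For Nbr1 WT 3 lay with the other WT arrays, unlike for Brca1. Npat, the regulator of histone genes that starts 376 bases from Atm, differed by -0.45 where Atm differed by 0.11. Aimp2, next to Pms2, differed by -0.46, and Ankrd49, next to Mre11a, by 0.38. The signs of Atm and Mre11a turned under some of the alternative settings. No neighbour passed (limma, adjusted p of 0.223 to 0.972).

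**Figure D4:**
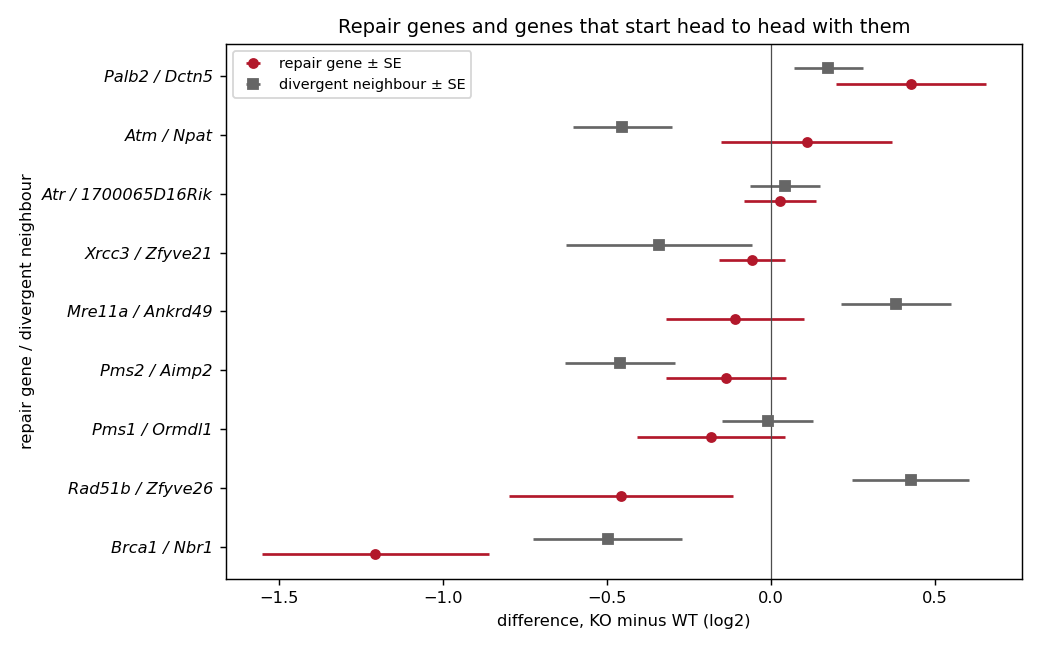
Each row is a repair gene and the gene that starts head to head with it; points are KO minus WT in log2 with the standard error from limma. The 9 pairs whose neighbour exceeded the negative control median are shown, and Brca1 at -1.21 and Nbr1 at -0.50 both lie below 0.

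Among the genes of strand exchange mediators, Brca1 had the largest difference of the whole list, and it rested mostly on WT 1 and WT 2. BRCA1 acts with BARD1 as a ubiquitin ligase and recruits PALB2 and BRCA2. Brca1 read 8.73, 9.38 and 7.73 in WT and 7.10, 7.52, 7.59 and 7.41 in KO. WT 3 lay 0.14 above the highest KO array and far below the other WT arrays. The difference was -1.21 with a standard error of 0.35, 2.31-fold (limma, adjusted p = 0.223), -0.32 against WT 3 alone and -1.65 without WT 3 (adjusted p = 0.000486). Its partner Bard1 differed by -0.15 and ranged from 7.77 to 8.03 in WT and from 7.61 to 7.80 in KO, so the groups overlapped. Brca2, a mediator of strand exchange, read 9.53, 9.32 and 9.05 in WT and 9.01, 8.90, 8.92 and 9.23 in KO, a difference of -0.28 with 1 KO array above WT 3. Rad54l, a motor protein of recombination, read 8.63, 8.51 and 8.77 in WT and 8.55, 8.48, 8.29 and 8.32 in KO. It differed from the pattern of Brca1 in that WT 3 was the highest array, and the difference was -0.23 over all arrays and -0.36 against WT 3. Palb2, the bridge between BRCA1 and BRCA2, went the other way, at 0.43, through WT 2 at 6.99, where WT 1 and WT 3 read 7.78 and 8.04 and the KO arrays 7.98 to 8.12. Rad52, an annealing protein, differed by -0.19 and by 0.09 against WT 3 alone.

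Of the helicases, Blm separated the groups and Brip1 did not. BLM dissolves double Holliday junctions, and BRIP1 works with BRCA1. Blm read 9.23, 9.16 and 9.06 in WT and 8.86, 8.74, 8.85 and 8.97 in KO, a difference of -0.29 with a standard error of 0.10 (limma, adjusted p = 0.223) and of -0.20 against WT 3. Brip1 read 10.60, 10.42 and 10.08 in WT and 10.18, 10.34, 10.12 and 10.14 in KO, with WT 3 below every KO array.

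Genes of break sensing and the checkpoint kinases differed least among the roles, with a median absolute difference of 0.11. In 5 of 7 the difference was positive, and the groups overlapped in all 7. Among all genes 40.1% were negative, and 5.92% lay lower and 7.85% higher in KO without overlap. With 7 genes neither count sets this role apart. Chek2, the kinase downstream of ATM, read 8.25, 8.49 and 8.77 in WT and 8.97, 8.84, 8.69 and 8.93 in KO, a difference of 0.35 with a standard error of 0.14 (limma, adjusted p = 0.242). Rad50 read 10.40, 10.61 and 10.88 in WT and 10.98, 10.91, 10.78 and 10.90 in KO. In both genes WT 3 lay within the KO range and WT 1 was the lowest array. Nbn, whose product joins MRE11 and RAD50, read 9.31, 9.69 and 9.76 in WT and 9.56, 9.78, 9.80 and 9.59 in KO, and Mre11a differed by -0.11. Atm, the kinase that answers double-strand breaks, read 7.40 on WT 1 and 8.32 and 8.28 on WT 2 and WT 3, within the KO range of 7.84 to 8.42. Atr and Chek1, the kinase pair of stalled replication, differed by 0.03 and -0.06, and Chek1 was highest on WT 3, at 9.32.

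In the Fanconi anemia pathway 5 genes had negative and 2 positive differences, and none passed over all arrays. FANCD2 and FANCI form the clamp that is ubiquitinated on crosslinked DNA, FANCL is the ubiquitin ligase that acts on it, FANCA and FANCG belong to the core complex, and FANCM brings that complex to DNA. Fancd2 read 8.56, 8.67 and 7.39 in WT and 7.99, 7.34, 7.59 and 7.20 in KO, and Fanci 8.74, 8.61 and 7.48 in WT and 7.70, 7.36, 7.75 and 7.95 in KO. Both clamp genes were high on WT 1 and WT 2, and WT 3 lay within the KO range. Their differences were -0.67 and -0.59 over all arrays, 0.14 and 0.21 against WT 3, and -1.08 and -0.98 without WT 3 (limma, adjusted p = 0.00506 and 0.00269). Fancl showed the reverse order of arrays, at 10.17, 9.67 and 10.78 in WT and 10.87, 10.97, 10.94 and 10.62 in KO. Its difference of 0.64 (standard error 0.24; limma, adjusted p = 0.228) shrank to 0.07 against WT 3. Fancg read 9.30, 9.18 and 9.22 in WT and 9.42, 9.42, 9.55 and 9.66 in KO. The 3 WT arrays lay close together and below every KO array, and the difference of 0.28 was 0.30 against WT 3 alone (limma, adjusted p = 0.224 over all arrays). Fancm read 7.69, 7.91 and 7.64 in WT and 7.14, 7.28, 7.57 and 7.50 in KO, a difference of -0.37 that was -0.26 against WT 3. Fanca differed by -0.09. Fancc, at 5.30 to 6.03, exceeded the negative control median on 0 of 7 arrays.

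In mismatch repair 3 genes, Msh3, Msh6 and Mlh3, had positive differences and 3, Exo1, Pms1 and Pms2, negative ones, none past the adjusted threshold. MSH3 and MSH6 are the alternative partners that recognise loops and single mismatches, MLH3 and PMS2 are alternative endonuclease subunits, and EXO1 removes the strand; MLH3 and EXO1 also act in recombination. Mlh3 read 7.88, 7.84 and 8.12 in WT and 8.76, 8.49, 8.53 and 8.48 in KO. The lowest KO array stood 0.36 above the highest WT array, the widest gap among the genes higher in KO. The difference was 0.62 with a standard error of 0.12, 1.54-fold (limma, adjusted p = 0.223, unadjusted 0.000771), and 0.45 against WT 3 alone. Msh3 read 7.76, 7.75 and 8.19 in WT and 8.53, 8.36, 8.44 and 8.33 in KO, a difference of 0.51 with a standard error of 0.13 and of 0.22 against WT 3. Its groups did not overlap, though WT 3 lay nearer to KO than to the other WT arrays. Msh6 read 9.27 on both WT 1 and WT 2, 10.30 on WT 3 and 10.18, 10.22, 10.06 and 9.96 in KO. WT 3 was thus the highest of all 7 arrays, and the difference was 0.49 over all arrays and -0.20 against WT 3. Exo1 read 7.53, 7.44 and 7.13 in WT and 7.05, 6.68, 6.31 and 7.10 in KO, a difference of -0.58 with a standard error of 0.21 (limma, adjusted p = 0.224). The gap between WT 3 and KO 4 was 0.03, so the separation of Exo1 is narrow. Pms1 and Pms2 differed by -0.18 and -0.14, with overlapping groups.

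**Figure D5:**
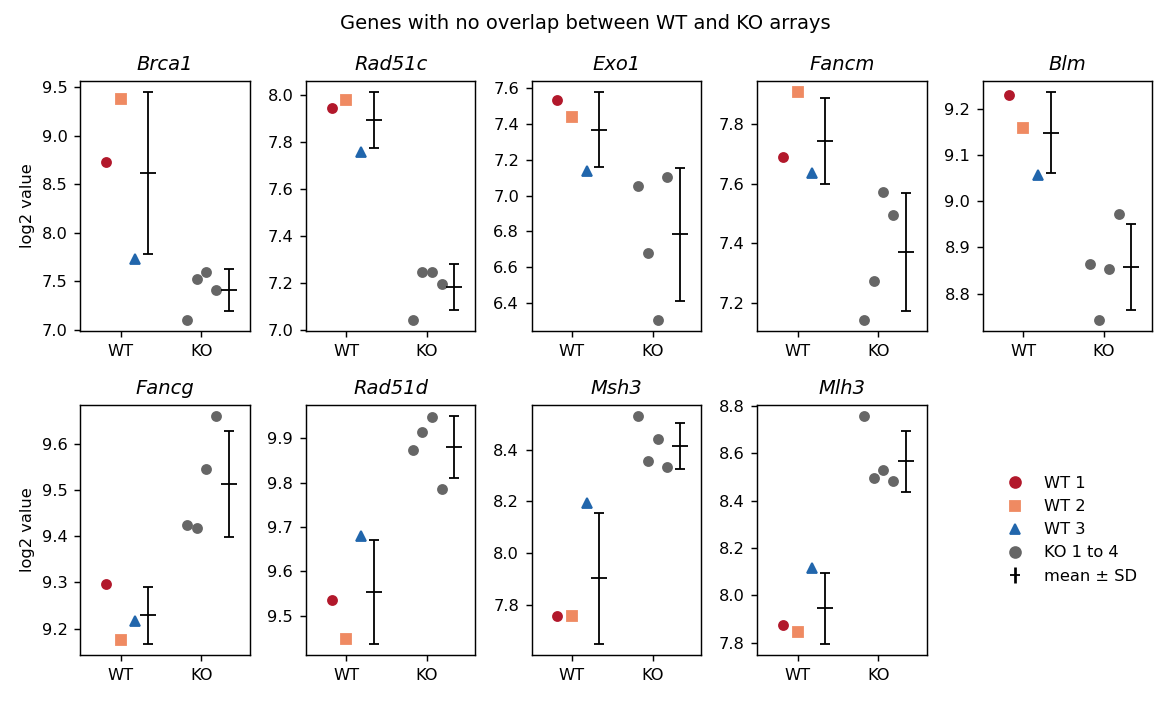
Log2 values on each array of the 9 genes whose WT and KO arrays did not overlap, with the mean and SD of each group; the vertical scales differ and do not start at 0. WT 3 lies nearer to the KO arrays than WT 1 and WT 2 in all genes but Fancg, and the gap is widest in Rad51c and Mlh3.

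For comparison, other repair genes were read by pathway. None of them passed over all genes (limma, smallest adjusted p = 0.223). Of 42 measured genes of recombination and the Fanconi pathway outside the list 17 were lower in KO, with a median difference of 0.05. There 6 were lower and 3 higher at an unadjusted p under 0.05, where 10.6% and 8.98% of all genes were. By that measure the shares of these 42 were near those of all genes in both directions. Every KO array lay below every WT array in 6 of the 42 and above in 4. Among all genes 5.92% lay below and 7.85% above in this way, so the share below was larger among the 42. Rad51ap1, a recombination cofactor, read 7.60, 7.97 and 6.11 in WT and 5.66, 5.25, 5.77 and 6.15 in KO. It exceeded the negative control median on 2 of 7 arrays, WT 1 and WT 2, so the other values have no order. Zswim7, a recombination factor, differed by -0.66 and the break adaptor Mdc1 by -0.42, both without overlap. Against WT 3 alone Zswim7 differed by -0.17 and Mdc1 by -0.23. Of 19 genes of replication and mismatch resynthesis 13 were lower, with a median of -0.10. Rfc3, a clamp loader subunit, differed by -0.65 and the polymerase gene Pole by -0.39, and by -0.37 and -0.32 against WT 3 alone. Of 10 end joining genes 5 were lower. Among them Xrcc5, which encodes Ku80, read 9.56, 10.55 and 7.60 in WT and 6.75 to 7.01 in KO. Its difference was -2.36 over all arrays and -0.72 against WT 3 alone. Xrcc6, which encodes the partner Ku70, differed by -0.29 with overlapping groups. For base excision 9 of 15 were lower (median -0.08) and for nucleotide excision 7 of 16 (median 0.09). The proliferation genes, with a median of -0.53 and 22 of 32 lower at an unadjusted p under 0.05 (68.8% beside 10.6% of all genes), included Bub1 at -1.35, Plk1 at -1.14 and Rrm2 at -0.80; against WT 3 alone their median was -0.14.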

How the data were processed

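The authors deposited 1 table of log2 values, 28846 probe sets by 7 arrays, per the submitters' processing notes made by RMA with Expression Console 1.1. Total RNA was column-purified and processed with a whole-transcript assay kit, per the labels' protocols. No build is named for the arrays. Summarised array values are compressed at low signal, which shrinks the differences of dim genes. Of 22206 transcript probe sets 19572 carried 1 gene symbol in the platform annotation, 0 several, and 2634 were unnamed; all 19572 matched the reference table by gene identifier. One probe set per symbol left 19505 genes.

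The groups were compared by lmFit and eBayes of limma 3.58.1 (R 4.3.3), without covariates, Benjamini-Hochberg adjusted over all genes at a threshold of 0.05. On simulated data for KO against WT (19505 genes, 200 changed) the fit recovered 80% of the genes shifted by 1 log2 unit and 95% of those shifted by 2, and made 9 false calls. These rates do not describe the real comparison, in which 0 genes passed and Tyr, at -4.28, had an adjusted p of 0.223 (limma). Groups and replicate numbers came from the titles, and the numbers do not pair the arrays.

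The genes, the marker and pathway lists and the tests were chosen with earlier results of these data known. All 32 genes may be named; values on every array are given for the 3 smallest unadjusted p per role and for genes without overlap. Up to 3 genes per pathway list were named by unadjusted p. Divergent neighbours, taken from RefSeq start sites within 1000 bases, fall outside that rule, and Fancd2, Fanci and Msh6, also given on every array, and Palb2, Atm, Pms1 and Pms2, given on single arrays, were chosen after their values were seen. Alternatives were leaving out each array, WT 1 and WT 2 together, a replicate block, median centring, quantile normalization, a dim filter (mean log2 under 8.09), trended and robust variance, array weights and every probe set.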

Additional observations from a re-analysis of the deposited data

How the results depend on the processing

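Of the 32 genes, 16 kept the sign of their difference in each alternative that could be run on them. Of these, 10 were run in 15 alternatives (Rad51d, Rad54l, Brca2, Blm, Rad50, Chek2, Fancg, Fancl, Msh3 and Mlh3) and 6 in 14, since the dim filter removed them (Rad51c, Brca1, Bard1, Fancm, Pms2 and Exo1). Calls with limma came from 2 settings. Without WT 3, 4931 genes passed, 13 of them on the list (40.6% of it beside 25.3% of all genes). Array weights, which gave WT 3 the lowest weight at 0.241, called 4458 and 14 (43.8% beside 22.9%). In both settings 12 of the 32 were called, beside 4121 of all 19505 genes. Leaving out 1 array at a time gave 0 to 4931 genes called, 0 to 13 of the list, 5 to 11 genes with KO below every WT array and 4 to 9 above, each highest without WT 3. Without WT 1 and WT 2, 8 genes lay below WT 3 on every KO array, the median was 0.0102, and the sign turned in 13: Rad51b (0.12), Xrcc3 (0.0632), Rad52 (0.0929), Palb2 (-0.0099), Brip1 (0.11), Nbn (-0.0767), Atm (-0.18), Fanca (0.0244), Fancc (0.0044), Fancd2 (0.14), Fanci (0.21), Msh6 (-0.20) and Pms1 (0.0652). The dim filter kept 18 genes of the list, with a median of 0.0607. Of these, 8 were lower in KO, and 1 lay lower and 4 higher without overlap. Fewer genes entered by construction, and the matching shares among all genes kept were not counted. Array weights turned Mre11a (0.0688), Atr (-0.0114), Chek1 (0.0776) and Fancc (0.0137), quantile normalization Xrcc3 (0.0048) and Chek1 (0.0282); the cause was not tested. With 1 array left out, Xrcc3 ranged from -0.12 to 0.0016, Mre11a from -0.25 to 0.0669, Nbn from -0.0422 to 0.18, Atm from -0.19 to 0.27, Atr from -0.0346 to 0.0827, Chek1 from -0.18 to 0.0921, Fancc from -0.16 to 0.0855 and Pms1 from -0.31 to 0.0081. The replicate block called 0 genes and 0 of the list, with a median of -0.08, and turned Mre11a (0.0215) and Pms1 (0.0081); same-numbered arrays deviated together at r = -0.04, 0.05 and -0.02, and no WT array correlated best with its own number. Median centring moved the share of higher among all genes at an unadjusted p under 0.05 from 45.9% (1752 of 3820 genes) to 57.6% (2469 higher, 1814 lower); on the list it left 6 higher and 5 lower. Of the 32 genes, 28 exceeded the negative control median on all arrays. By that bar, signal over background limits Rad51b, Fancc, Pms1 and Exo1. The 95th percentile of the negative controls was higher, from 9.37 on WT 2 to 10.19 on KO 1. Only Rad51d, Xrcc3, Brca1, Brca2, Brip1, Rad50, Nbn, Fancl and Msh6 exceeded it on any array, and Brca1 did so on WT 2 alone. All the other genes of the list read under it on every array. They include Rad51c, Blm, Fancm, Exo1, Fancg, Msh3 and Mlh3, whose groups did not overlap. Background may therefore limit most of the list, Brca1 included.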

Other observations

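Some of these genes varied more among the KO arrays than between groups. Rad51b had an SD of 0.57 (n = 4) in KO, with KO 1 and KO 4 at 7.26 and 7.17 and KO 2 and KO 3 at 6.42 and 6.09. Pms1 had an SD of 0.40 in KO through KO 4 at 6.82, where KO 1 to 3 read 7.63, 7.42 and 7.71, and Pms2 one of 0.35 against 0.05 in WT, with KO 4 highest at 8.42. No KO array of the 32 genes or Opa1 stood far enough from the other 3 to be set apart by Dixon's test (0 of 33 groups of 4). Over the 32 genes the WT SD exceeded the KO SD in 22, 68.8% beside 66.7% of all genes.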
